A study of Mus musculus with 32 samples.

Results

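The 33 genes described here encode proteins that copy DNA or make its building blocks. They were taken from a list of mouse symbols for DNA replication and nucleotide synthesis, and all 33 were found by symbol in a count table of 52636 genes. The filter on low counts kept 15599 genes for testing and 32 of the 33, leaving out Orc1, which had 113 counts over all libraries together. By role the genes fall into origin licensing (Orc1, Orc6, Cdc6, Cdt1, Mcm2 to Mcm7), helicase activation and the checkpoint mediator (Mcm10, Cdc45, Gins1, Gins2, Clspn), polymerases and primase (Pola1, Prim1, Pold1, Pole), clamp, clamp loader and single-strand binding (Pcna, Rfc3, Rfc4, Rfc5, Rpa2), joining of lagging-strand fragments (Fen1, Lig1), deoxynucleotide supply (Rrm1, Rrm2, Tk1, Tyms, Dut), and the copying of chromatin and DNA methylation (Chaf1b, Uhrf1).

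The study sequenced polyadenylated RNA from the livers of 32 mice, in 8 groups of 4 animals with separate animal numbers. Wild-type mice and mice labelled as thyroid hormone receptor beta knockout (Thrb) were compared. All groups, controls included, ate a PTU/LID diet, which lowers thyroid hormone production. Mice received carbon tetrachloride (CCl4) at 0.4 µl/g, 2 times a week over 4 weeks for 9 injections, or olive oil. CCl4 is a solvent that injures hepatocytes and, when repeated, leads to fibrosis. Within each injection group, mice received triiodothyronine (T3), the active thyroid hormone, at 1 µg/ml in the drinking water for the last 1 week, or PBS as the control. Livers were collected for RNA 24 hours after the final injection. The age and strain of the mice, the cells in which the receptor gene is inactive and the exons removed were not stated in the labels.

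Before a cell divides, the origin recognition complex, Cdc6 and Cdt1 load the Mcm2 to Mcm7 helicase onto DNA, and Cdc45 and the GINS complex switch it on. Polymerases then copy both strands while the Pcna clamp holds them on the template, and ribonucleotide reductase, whose small subunit is Rrm2, supplies deoxynucleotides. Most adult hepatocytes rest outside the cell cycle and re-enter it after injury or tissue loss, and thyroid hormone is a known liver mitogen in rodents. E2F transcription factors bind the promoters of many replication genes.

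Promoter sequence is shown because the genes below did not all move together, and an E2F-type word in the promoter is a feature that the choice of genes did not use. The RefSeq promoter table (build GRCm38.p6, from 250 bases before to 50 after each annotated start) held 29 of the 33 genes, with 34 promoters. Mcm4, Pole, Gins1 and Gins2 had no entry. The words TTTCCCGC, TTTGGCGC, TTTCGCGC and TTTGCCGC were searched on both strands, and matches may overlap one another. Of the 34 promoters, 13 (38.2%) held at least 1 such word, against 744 of all 32851 promoters (2.26%). The shorter CCAAT box was found in 58.8% of the members' promoters and 37.4% of all. The first 4 stretches below each hold at least 1 E2F-type word, in capitals. The last 2, of Mcm10 and Rrm2, hold none, and they are shown because Mcm10 moved against the other genes and Rrm2 differed most between genotypes. Each is 160 bases, 5′ to 3′ on the strand of the gene: Mcm6 at chr1:128359706-128359865 (minus strand), Mcm5 at chr8:75109349-75109508 (plus), Cdc6 at chr11:98907991-98908150 (plus), Pola1 at chrX:93632156-93632315 (minus), Mcm10 at chr2:5012792-5012951 (minus) and Rrm2 at chr12:24708081-24708240 (plus).
Mcm6: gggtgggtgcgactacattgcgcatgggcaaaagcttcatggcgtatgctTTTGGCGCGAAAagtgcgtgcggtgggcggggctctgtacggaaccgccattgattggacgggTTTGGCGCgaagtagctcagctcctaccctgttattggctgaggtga
Mcm5: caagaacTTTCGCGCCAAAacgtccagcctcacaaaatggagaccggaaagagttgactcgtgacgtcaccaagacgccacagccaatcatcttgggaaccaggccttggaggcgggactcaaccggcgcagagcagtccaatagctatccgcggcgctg
Cdc6: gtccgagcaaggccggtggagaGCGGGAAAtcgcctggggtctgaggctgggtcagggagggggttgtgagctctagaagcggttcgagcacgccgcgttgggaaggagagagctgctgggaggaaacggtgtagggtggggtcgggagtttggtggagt
Pola1: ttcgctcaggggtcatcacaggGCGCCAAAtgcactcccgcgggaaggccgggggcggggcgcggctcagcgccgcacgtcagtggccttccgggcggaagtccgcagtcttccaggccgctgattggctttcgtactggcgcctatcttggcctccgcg
Mcm10: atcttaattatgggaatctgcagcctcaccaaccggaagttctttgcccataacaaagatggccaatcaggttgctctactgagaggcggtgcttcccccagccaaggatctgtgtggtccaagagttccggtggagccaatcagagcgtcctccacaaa
Rrm2: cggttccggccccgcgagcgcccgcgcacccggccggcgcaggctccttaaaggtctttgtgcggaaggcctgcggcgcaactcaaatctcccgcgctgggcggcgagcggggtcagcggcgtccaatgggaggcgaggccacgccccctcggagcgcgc
The stretch of Mcm6 held 3 words, of which 2 overlap in its first run of capitals, and that of Mcm5 held 2 that overlap in 1 run. Cdc6 and Pola1 held 1 each, on the strand opposite to the gene. These 6 do not show a rule over all members. Of the 12 tested members whose promoter held a word, 9 rose with T3 in wild-type mice on oil, Rfc3 fell, and Cdt1 and Lig1 were not called. Of the 16 without a word, 7 rose (Mcm2, Cdc45, Prim1, Fen1, Rrm1, Rrm2 and Chaf1b), Mcm10 fell and 8 were not called. A match is a description of these letters and not evidence of binding.

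Library totals ran from 16985162 to 26118055 counts. Levels are given as CPM, counts scaled by library total and TMM factor to a common unit. A gene is called, and is said to have risen or fallen, at an adjusted p of 0.05 in edgeR's quasi-likelihood test with Benjamini-Hochberg adjustment over the 15599 genes. Fold changes are log2 values ± SE, with 4 mice in each group. Thrb counts per gene do not show the removed exons: Thrb stood at 50.2 to 66.4 CPM in wild-type and 30.7 to 42.6 CPM in knockout mice on PBS and oil, without overlap. On PBS and CCl4 the genotypes overlapped, at 10.7 to 33.1 and 15.9 to 23.1 CPM. Dio1, a hepatic target of T3, stood at 844 to 1185 CPM in the 8 wild-type mice on T3 and at 77.3 to 135 CPM in the 8 knockout mice on T3. The libraries farthest from their group means were replicate 2 of the wild-type PBS CCl4 group and replicate 3 of the knockout PBS CCl4 group. Because whole liver was sequenced, fewer cells of a type and less RNA per cell cannot be told apart.

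In wild-type mice on PBS and oil the levels of the replication genes spanned a wide range. Per kilobase of exon, Pcna, the sliding clamp, was highest at 10.1 CPM, followed by Mcm10 at 6.34, Tk1 (thymidine kinase, which salvages thymidine) at 5.4, Dut (which removes dUTP) at 3.54 and Mcm7 at 3.09. The lowest were Orc1 at 0.00, Clspn at 0.03, Cdc6 at 0.04 and Uhrf1 at 0.06 CPM per kilobase. The order changed with T3: in wild-type mice on T3 and oil, Rrm2 was highest (19.996 CPM per kilobase), ahead of Pcna at 12.7, Mcm7 at 4.85 and Tk1 at 4.81. Summed over the 33 genes, the level was 233 ± 9.88 CPM (SD, n = 4) in wild-type and 195 ± 13.6 CPM in knockout mice on PBS and oil. It was 352 ± 88.4 and 290.4 ± 63.3 CPM on T3 and oil, 253 ± 19.7 and 279.5 ± 56.9 CPM on PBS and CCl4, and 287 ± 43.7 and 244 ± 18.7 CPM on T3 and CCl4, wild type first. These sums weigh abundant genes most and do not show how most of the genes moved. Mcm10 alone averaged 48.8 CPM in wild-type and 24.5 CPM in knockout mice on PBS and oil. In the wild type it averaged 8.22 CPM on T3 and oil and 16.3 CPM on PBS and CCl4. Its falls therefore count against the rises of other genes in the sum. The spread of the sum between mice was widest on T3 and oil. There 1 mouse of each genotype was above its group mean for nearly all of the 32 tested genes. These were replicate 1 of the wild type, for 30 genes, and replicate 1 of the knockout, for 32.

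**Figure D1:**
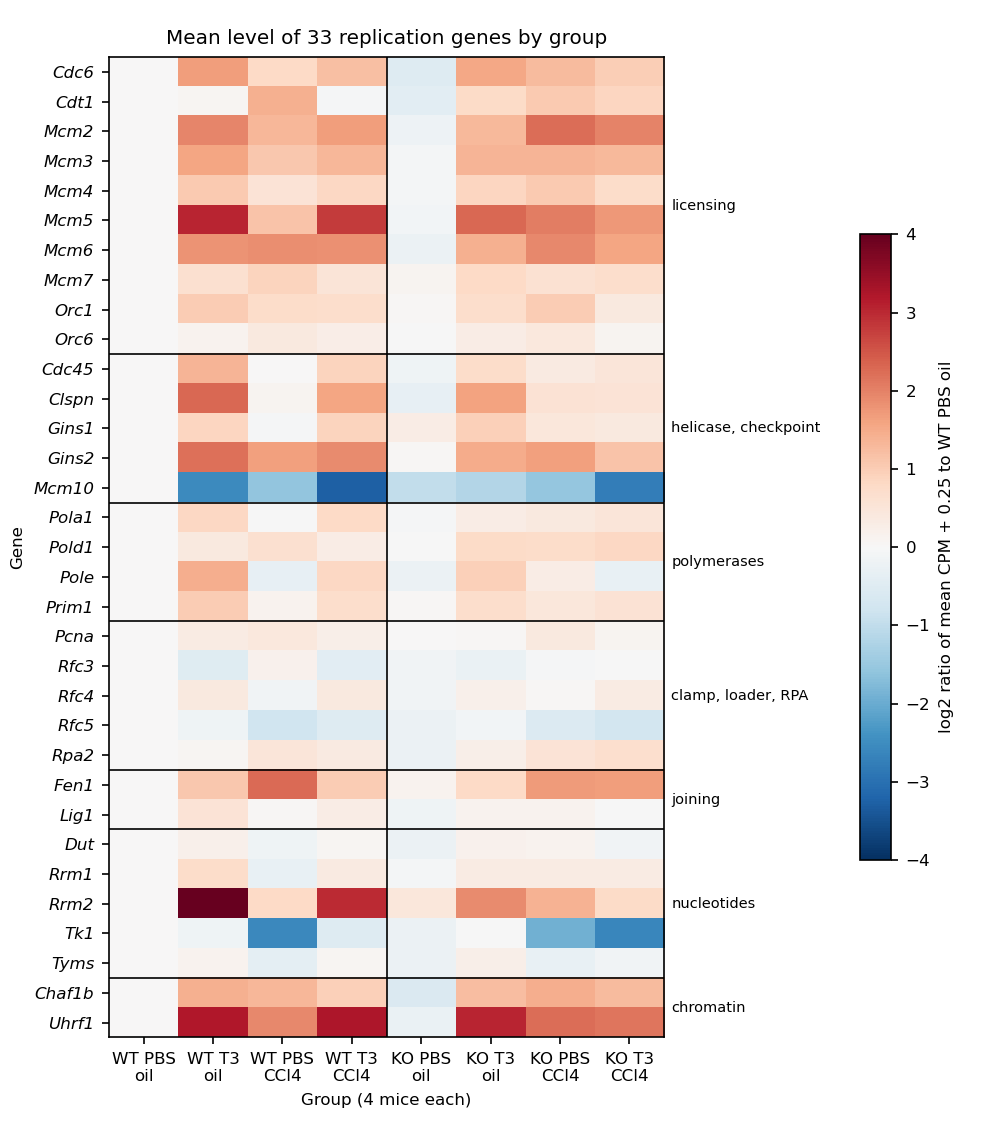
Mean level of each of the 33 genes (rows, grouped by role) in the 8 groups of 4 mice (columns), coloured by the log2 ratio of mean CPM + 0.25 to the wild-type PBS oil group. Mcm5, Uhrf1 and Rrm2 lie above the reference in both T3 groups of the wild type, while Mcm10 lies below it in all other 7 groups and Tk1 is lowest in 3 of the 4 CCl4 groups.

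The first question was how the genes respond to T3 in the uninjured liver. In wild-type mice on oil, T3 raised 20 of the 32 tested genes and lowered 2, where 35.3% of all genes tested were called (19.0% higher and 16.2% lower). For 20 of the 32 the 4 T3 and 4 PBS mice did not overlap, against 38.5% of all genes. The median log2 change of the 32 was 0.91, against -0.02 over all genes. By role, 7 of 9 tested licensing genes rose, all 4 polymerase and primase genes, 4 of 5 helicase and checkpoint genes, both chromatin genes, 2 of 5 nucleotide genes and 1 of 2 joining genes. None of the 5 clamp, loader and single-strand binding genes rose.

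Rrm2, the small subunit of ribonucleotide reductase (ENSMUSG00000020649, chr12:24708241-24714146, plus strand), had the smallest adjusted p. It stood at 1.74, 2.63, 5.93 and 2.82 CPM in the wild-type mice on PBS and oil, and at 84.1, 52, 36.9 and 48.7 CPM on T3 and oil. The groups did not overlap, and the log2 change was 4.05 ± 0.37 (adjusted p = 1.59e-09), a 16.6-fold rise. The large subunit Rrm1 stood at 12.1, 9.43, 12.2 and 13.4 CPM on PBS and at 28, 15.4, 15.3 and 21.3 CPM on T3, again without overlap, for a smaller change of 0.76 ± 0.22. That call for Rrm1 was lost without replicate 1 of the T3 group (adjusted p = 0.0594). Thus the 2 subunits of 1 enzyme both rose but by different amounts. The other nucleotide genes were not called: Tk1 changed by -0.17, Tyms (thymidylate synthase) by 0.16 and Dut by 0.22.

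Among licensing genes, Mcm5, a subunit of the replicative helicase, moved most. Mcm5 (ENSMUSG00000005410, chr8:75109569-75128439, plus strand) stood at 1.01, 1.43, 1.14 and 2.14 CPM on PBS and at 23.3, 11.3, 9.43 and 11 CPM on T3, for a change of 3.26 ± 0.44 (adjusted p = 1.01e-06). Every T3 mouse was above every PBS mouse. The other helicase subunits rose less: Mcm2 by 2.0, Mcm6 by 1.85, Mcm3 by 1.63, Mcm4 by 1.08 and Mcm7 by 0.65 on the log2 scale. Cdc6, the helicase loader, stood at 0.169, 0.274, 0.168 and 0.157 CPM on PBS and 0.503 to 1.61 CPM on T3, and rose by 2.57 ± 0.55. These are few reads, at most 35 counts in any library. Cdt1, its partner in loading, stood at 2.81, 5.21, 2.44 and 2.09 CPM on PBS and at 4.06, 2.57, 2.81 and 3.95 CPM on T3, and the groups overlapped (0.10 ± 0.36). Orc6 changed by 0.15 and was not called either.

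Of the helicase activators and the checkpoint mediator, Clspn (claspin, which relays the replication checkpoint) rose by 3.20 ± 0.57, from 0, 0.165, 0.168 and 0.523 CPM on PBS to 2.74, 1.36, 1.38 and 2.63 CPM on T3. Cdc45, an essential part of the active helicase, rose by 1.53 ± 0.39, from 1.29, 1.54, 1.18 and 1.20 CPM to 6.61, 2.82, 2.02 and 3.60 CPM. Neither gene's groups overlapped. The GINS subunits rose by 2.67 (Gins2) and 0.94 (Gins1). Gins2 shares 67.3% of its exon bases with Gse1 on the other strand, and the strand setting of the counting is not known, so reads of the pair cannot be told apart. Gse1 fell by 1.02 in the same comparison while Gins2 rose.

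Mcm10, a replication initiation factor that helps activate the helicase, went the other way. Mcm10 (ENSMUSG00000026669, chr2:4989714-5012791, minus strand) stood at 34.6, 59.2, 53.5 and 47.8 CPM in wild-type mice on PBS and oil and at 6.28, 11.2, 6.16 and 9.26 CPM on T3. The groups did not overlap, and Mcm10 fell by 2.57 on the log2 scale (SE 0.52, adjusted p = 2.72e-04). Its PBS level per kilobase was the second highest of the 33. Counts per gene do not show which exons carried these reads. Rfc3, a clamp loader subunit, was the other gene that fell, by 0.50 (SE 0.18), a call that was lost when any of 5 of the 8 libraries was left out (adjusted p up to 0.116).

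Polymerase genes rose together by smaller steps. Pole, the catalytic subunit of the leading-strand polymerase, stood at 2.19, 1.86, 2.02 and 2.72 CPM on PBS and 8.31, 6.44, 5.24 and 5.93 CPM on T3 (1.56 ± 0.33). Pola1, the catalytic subunit that starts each new strand with the primase, stood at 5.06, 3.29, 2.61 and 3.82 CPM on PBS and 8.78, 4.73, 7.04 and 6.37 CPM on T3 (0.87 ± 0.27). Pole did not overlap between groups and Pola1 did. The calls of Pola1 and of Pold1 (0.39 ± 0.15), the catalytic subunit of the main lagging-strand polymerase, were each lost without single libraries, with adjusted p up to 0.0613 and 0.119. The primase subunit Prim1 rose by 1.05.

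Both chromatin genes rose. Uhrf1, which recruits the maintenance DNA methyltransferase to new DNA (ENSMUSG00000001228, chr17:56303321-56323486, plus strand), stood at 0.337, 0.274, 0.126 and 0.314 CPM on PBS and 7.46, 3.87, 3.31 and 3.12 CPM on T3. Its change of 4.08 ± 0.58 was the largest of the 32. The PBS levels of Uhrf1 rest on few reads, and its lowest count in any library was 3. Chaf1b, a subunit of the histone chaperone CAF-1, rose by 1.61, from 0.731 to 1.59 CPM on PBS to 2.85 to 4.01 CPM on T3. Fen1, the flap nuclease that trims lagging-strand fragments, rose by 1.12 ± 0.38, a call lost without any of 3 single libraries (adjusted p up to 0.0791).

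Pcna and Lig1, the ligase that seals those fragments, were not called. Pcna stood at 27.1, 20.7, 23.9 and 25.2 CPM on PBS and 40.5, 29.6, 22.1 and 29.9 CPM on T3 (0.33 ± 0.19, adjusted p = 0.18). Lig1 stood at 6.58, 8.83, 5.09 and 7.37 CPM on PBS and 14.8, 9.51, 7.08 and 9.40 CPM on T3 (0.55 ± 0.27, adjusted p = 0.116). Both overlapped between groups. Over all 32 libraries Pcna ran only from 20.7 to 46 CPM. Pcna, Lig1 and Dut were called in none of the 16 comparisons by edgeR, while Rrm2 was called in 11.

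**Figure D2:**
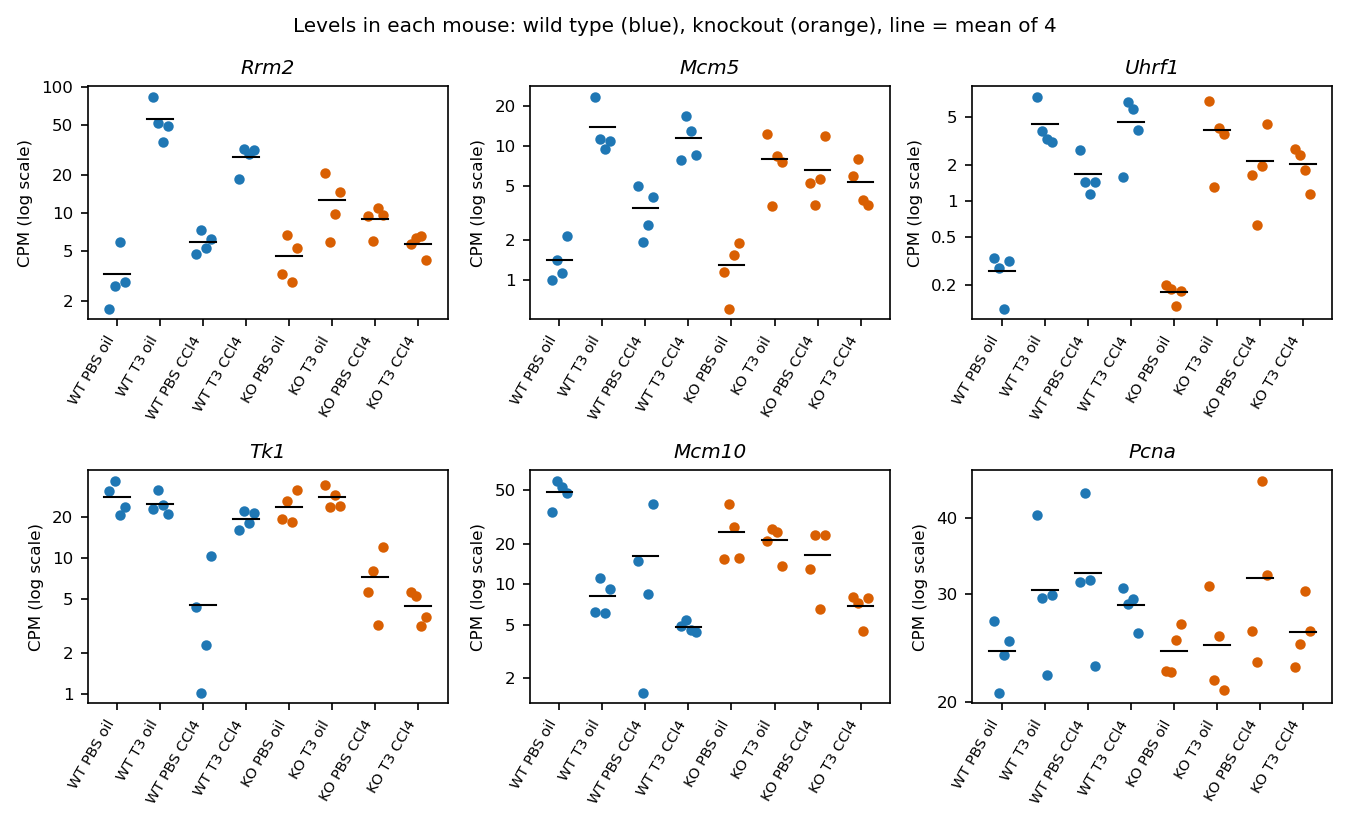
Level in each of the 32 mice (points, wild type blue and knockout orange, CPM on log axes that differ between panels) for 6 genes in the 8 groups, with the mean of 4 as a line. Rrm2, Mcm5 and Uhrf1 are high in wild-type mice on T3, Mcm10 is highest in the wild type on PBS and oil, Tk1 is low in 3 CCl4 groups, and Pcna overlaps across the groups.

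The second question was whether the response on oil depended on the receptor. In knockout mice on oil, T3 raised 16 of the 32 tested genes and lowered none, where 18.7% of all genes were called (10.6% higher and 8.11% lower). The median change was 0.71, against 0.01 over all genes, and 17 of the 32 did not overlap between groups, against 23.4%. The wild-type and knockout comparisons share no libraries. Of the genes that rose, 15 were common to both, 15 of 20 in the wild type and 15 of 16 in the knockout. The 5 called in the wild type alone were Cdc45, Fen1, Pola1, Prim1 and Rrm1, and Cdt1 was called in the knockout alone, but for these 6 genes the difference between genotypes did not pass its own test.

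Uhrf1 again changed most in the knockout, from 0.201, 0.185, 0.132 and 0.177 CPM on PBS to 6.81, 1.30, 4.04 and 3.65 CPM on T3 (4.48 ± 0.62, adjusted p = 7.2e-06). Cdc6 rose by 4.12 ± 0.68, from 0, 0.123, 0 and 0.118 CPM to 1.29, 0.887, 1.03 and 0.912 CPM. Mcm5 rose by 2.61 ± 0.44, from 1.15, 0.617, 1.54 and 1.89 CPM to 12.2, 3.61, 8.42 and 7.64 CPM. None of these 3 genes overlapped between groups. Clspn rose by 3.22, Chaf1b by 2.17, Gins2 by 1.88 and Cdt1 by 1.29. The Cdt1 call was lost without replicate 3 of the knockout T3 oil group (adjusted p = 0.0584), and that of Pole (1.30 ± 0.34) without replicate 1 (adjusted p = 0.0505). The calls of Mcm4 (0.97) and Gins1 (0.71) were also lost without single libraries, with adjusted p up to 0.0565 and 0.183. The smallest value was that of Mcm10, at -0.20, which was not called.

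On oil, knockout and wild-type mice differed in their response to T3 for 2 of the 32 genes, where 12.2% of all genes were called (5.58% higher and 6.64% lower). Rrm2 responded less in the knockout, with a difference of -2.55 ± 0.49 (adjusted p = 7.84e-04). Knockout mice went from 3.31, 6.72, 2.86 and 5.26 CPM on PBS to 20.8, 5.92, 9.80 and 14.7 CPM on T3, with an overlap, and a rise of 1.51 ± 0.35. The 4 knockout mice on T3 were all below the 4 wild-type mice on T3, and Rrm2 was called between the genotypes on T3 and oil (-2.11 ± 0.34, adjusted p = 5.64e-05), with no other of the 32 genes called by edgeR, where 16.3% of all genes were called (7.14% higher and 9.21% lower). The groups did not overlap for 3 of the 32, against 22.6% of all genes. Other settings called 2 or 3 genes: Mcm10 was higher in the knockout with only the compared groups, and Mcm10 and Pold1 were higher with DESeq2 or without the 2 farthest libraries. Without replicate 1 of the knockout T3 oil group 3 were called, all lower, and without replicate 2 there were 2. Mcm10 was the second gene, with a difference of 2.37 ± 0.71 (adjusted p = 0.0259). It stood at 15.6, 39.9, 27 and 15.7 CPM in the knockout on PBS and 21.1, 26, 24.5 and 13.7 CPM on T3. That call was lost when any of 6 single libraries was left out (adjusted p up to 0.061).

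On PBS and oil, no single gene was called between the genotypes. The summed level of the 33 did not overlap, at 223 to 246 CPM in wild-type and 177 to 208 CPM in knockout mice. That sum includes Mcm10, which was not called and averaged 48.8 CPM in the wild type and 24.5 CPM in the knockout. The mean log2 CPM of the tested genes did overlap, at 1.84 to 2.03 and 1.61 to 1.86. None of the 32 was called by edgeR or by DESeq2, where edgeR called 0.538% of all genes (0.404% higher and 0.135% lower), and 1 (Cdc6) had an unadjusted p under 0.05. The changes ran from -1.72 (Cdc6) to 0.43 (Rrm2), with a median of -0.18. The groups did not overlap for 1 of the 32, against 6.82% of all genes.

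**Figure D3:**
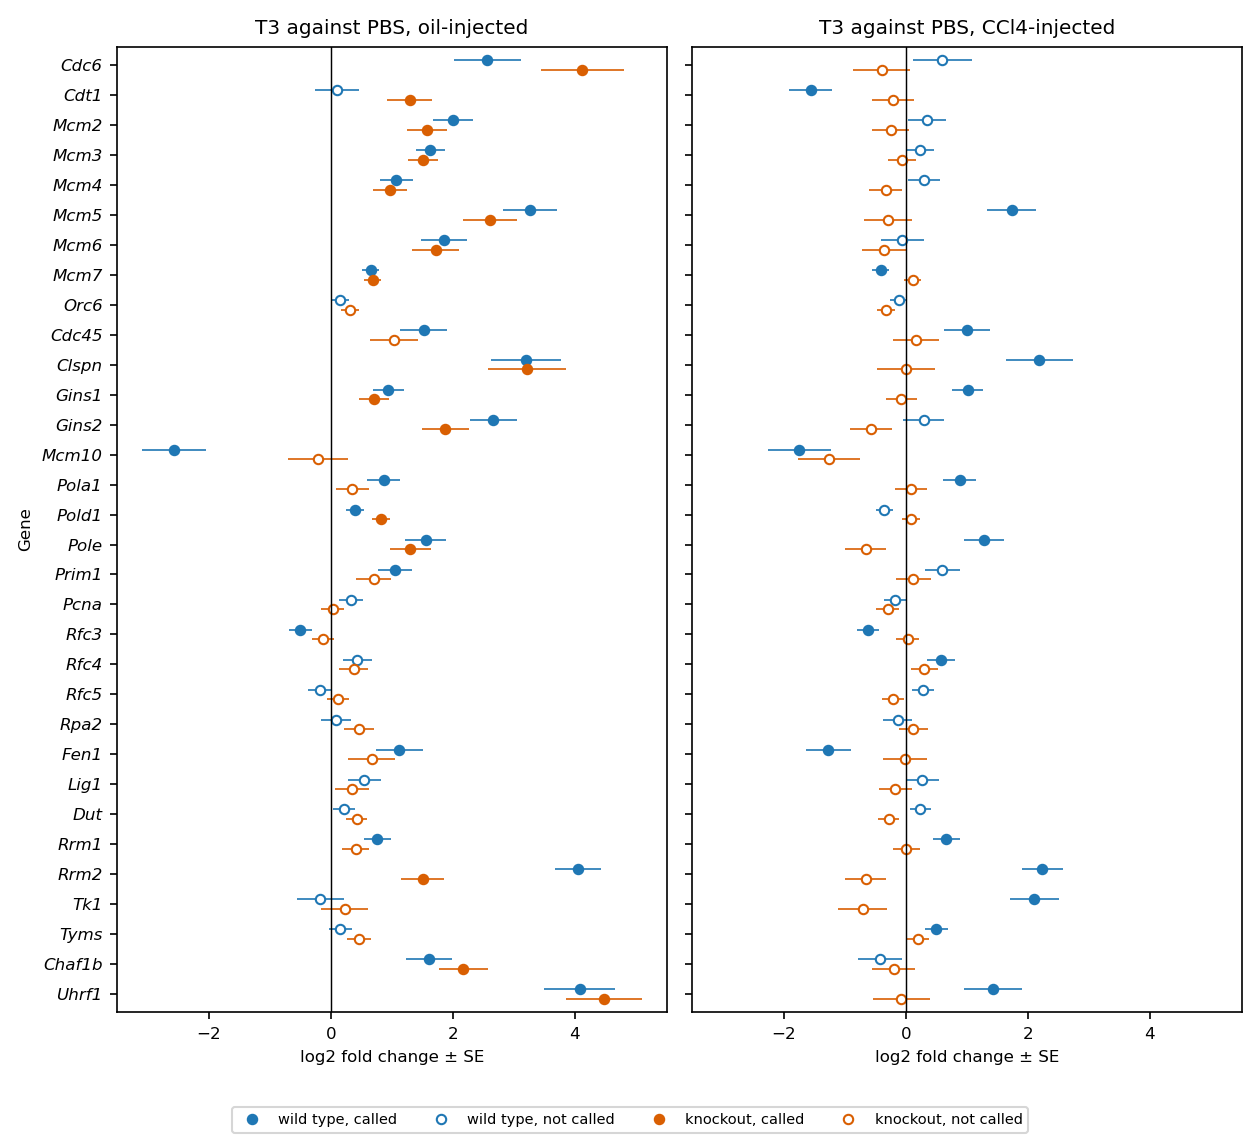
log2 fold change ± SE of T3 against PBS for the 32 tested genes in wild-type (blue) and knockout mice (orange), oil-injected on the left and CCl4-injected on the right. Filled points were called at an adjusted p of 0.05. On oil most genes lie right of 0 in both genotypes, and on CCl4 no knockout point is filled.

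The third question was the effect of CCl4 on these genes without T3. In wild-type mice on PBS, CCl4 raised 13 of the 32 and lowered 3, where 46.2% of all genes were called (24.6% higher and 21.6% lower). The total called was near that share. The median was 0.41 against 0.04 over all genes. In knockout mice on PBS it raised 17 and lowered 1, where 31.1% of all genes were called (17.8% higher and 13.4% lower), with a median of 0.61. Oil and CCl4 mice did not overlap for 12 of the 32 in the wild type, near the 33.9% of all genes, and for 16 in the knockout, against 30.3%. The 13 genes that rose in the wild type all rose in the knockout, 13 of 13 and 13 of 17, and the 2 comparisons share no libraries. The 4 called in the knockout alone were Clspn, Mcm4, Rpa2 and Rrm2. By role, 8 of 9 licensing genes rose in the wild type and 9 of 9 in the knockout, both chromatin genes rose in each, and of the 4 polymerase genes only Pold1 rose in each. These CCl4 comparisons share their PBS oil mice with the T3 comparisons on oil, so the values are set side by side and not compared by overlap.

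Mcm7 had the smallest adjusted p in the wild type: it stood at 14.6, 14.9, 11.8 and 13.5 CPM on oil and 26.7, 30.6, 22.5 and 23.7 CPM on CCl4 (0.92 ± 0.14, adjusted p = 1.37e-05). Mcm2 had the smallest in the knockout, at 2.26, 5.06, 3.21 and 3.31 CPM on oil and 12.2, 10.5, 37.7 and 19.3 CPM on CCl4 (2.53 ± 0.34, adjusted p = 5.59e-06). In neither case did the groups overlap. Cdt1, which T3 did not move in the wild type on oil, rose with CCl4 in both genotypes. It stood at 8.62, 16.5, 5.22 and 5.33 CPM in the wild type (1.51 ± 0.35) and at 6.12, 4.04, 9.34 and 7.77 CPM in the knockout (1.6 ± 0.36). Uhrf1 rose by 2.68 and 3.60, Gins2 by 2.04 and 2.04, Mcm6 by 1.92 and 2.22, Chaf1b by 1.52 and 2.42, and Mcm5 by 1.26 and 2.34, wild type first. The wild-type calls of Mcm5, Cdc6 (1.38) and Orc6 (0.40) were lost without single libraries, with adjusted p up to 0.0761, 0.16 and 0.197, as were the knockout calls of Rrm2 (1.01), Clspn (1.81), Rpa2 (0.80) and Orc6 (0.46), with adjusted p up to 0.105, 0.209, 0.0628 and 0.155.

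Fen1 and Tk1 moved in opposite directions in the wild type. Fen1 stood at 3.49, 1.97, 3.45 and 4.65 CPM in wild-type mice on PBS and oil and at 10.2, 38.7, 12.2 and 7.19 CPM on PBS and CCl4 (2.33 ± 0.39, adjusted p = 3.41e-05). Replicate 2, one of the 2 libraries that stand apart, was highest, and the call held without it. Tk1 (ENSMUSG00000025574, chr11:117815526-117826092, minus strand) stood at 31, 36.9, 20.8 and 23.5 CPM on oil and at 4.37, 1.03, 2.29 and 10.3 CPM on CCl4, and fell by 2.64 on the log2 scale (SE 0.41, adjusted p = 1.7e-05). In the knockout it stood at 19.3, 26, 18.3 and 31.3 CPM on oil and 5.66, 8.09, 3.25 and 12.1 CPM on CCl4, and fell by 1.71 (SE 0.40). The groups did not overlap in either genotype. Afmid, on the other strand, overlaps 1.6% of the exon bases of Tk1, and it fell by 3.25 in the wild type and by 2.30 in the knockout. The share of Tk1 reads that belongs to Afmid was not tested.

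Mcm10 and Rfc5, a clamp loader subunit, also fell in the wild type, by 1.59 (SE 0.50) and 0.81 (SE 0.18). Mcm10 spread widely over the wild-type CCl4 mice, at 15, 1.57, 8.54 and 39.9 CPM, with the replicate that was high in Fen1 lowest. Rfc5 shares 10.7% of its exon bases with Wsb2 on the other strand, which rose by 1.15. Rrm2 was not called in the wild type (0.82 ± 0.35, adjusted p = 0.0585), with 4.73, 7.30, 5.25 and 6.22 CPM on CCl4.

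The fourth question, which the design addresses through the groups given both, was how T3 acts in the CCl4-injured liver. In wild-type mice on CCl4, T3 raised 12 of the 32 and lowered 5, where 41.7% of all genes were called (20.0% higher and 21.7% lower). The median was 0.30 against -0.06 over all genes. For 10 of the 32 the groups did not overlap, a count near the 31.4% of all genes. The split into higher and lower depended on scaling: with library totals in place of TMM factors the median of all genes moved by -0.35, and 6 of the 32 rose and 8 fell, with a median of -0.06. Relative to total counts, Mcm5, Gins1, Pole, Rrm2, Tk1 and Clspn still rose, and Mcm10, Cdt1, Fen1, Rfc3 and Mcm7 still fell. Left without replicate 2 of the wild-type PBS CCl4 group, 7 rose and 3 fell.

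Rrm2 and Tk1 rose most clearly. Rrm2 went from 4.73, 7.30, 5.25 and 6.22 CPM on PBS and CCl4 to 18.5, 32, 29.3 and 31.4 CPM on T3 and CCl4 (2.24 ± 0.34, adjusted p = 8.59e-06). Tk1 went from 4.37, 1.03, 2.29 and 10.3 CPM to 16.1, 22.2, 18 and 21.3 CPM (2.11 ± 0.41, adjusted p = 1.57e-04), and Afmid rose by 2.56. All T3 mice exceeded all PBS mice for both. Clspn rose by 2.19 ± 0.55, from 0.240, 0.330, 0.214 and 0.202 CPM to 0.513, 1.98, 1.49 and 0.599 CPM. Mcm5 rose by 1.74 ± 0.40, to 7.83, 16.7, 12.8 and 8.50 CPM from 5.05, 1.94, 2.57 and 4.16 CPM, and Pole rose by 1.28 ± 0.33. Of the nucleotide genes, 4 of 5 rose, Rrm1 by 0.66 and Tyms by 0.50 among them, with Dut at 0.24 not called.

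The genes that fell with T3 on CCl4 were Mcm10 (by 1.74), Cdt1 (by 1.56), Fen1 (by 1.27), Rfc3 (by 0.62) and Mcm7 (by 0.41). Cdt1 went from 8.62, 16.5, 5.22 and 5.33 CPM to 2.19, 4.42, 2.82 and 2.67 CPM, without overlap (SE 0.35, adjusted p = 8.73e-04), and the call held when any single library was left out. The Fen1 call was lost without replicate 2 of the PBS group (adjusted p = 0.192), and that of Mcm10 without replicate 4 (adjusted p = 0.165). Uhrf1 (1.43), Cdc45 (1.00), Pola1 (0.88), Rfc4 (0.58), Rrm1, Tyms and Mcm7 also lost their calls without single libraries. Rfc4 shares 12.7% of its exon bases with Eif4a2 on the other strand, and the share of its reads that belongs to Eif4a2 was not tested. Both T3 comparisons in the wild type called Rrm2, Mcm5, Clspn, Uhrf1, Pole, Cdc45, Gins1, Pola1 and Rrm1 higher, 9 of the 20 on oil and 9 of the 12 on CCl4, from separate mice.

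In knockout mice on CCl4, T3 changed none of the 32 by edgeR or by DESeq2, where edgeR called 2.54% of all genes (1.77% higher and 0.769% lower), and 2 (Mcm10 and Orc6) had an unadjusted p under 0.05. The values ran from -1.26 (Mcm10) to 0.31 (Rfc4), with a median of -0.18, and 1 of the 32 did not overlap between groups, against 9.24% of all genes. Rrm2 stood at 9.53, 5.97, 11 and 9.62 CPM on PBS and 5.73, 6.39, 6.55 and 4.23 CPM on T3 (-0.65, 95% interval -1.32 to 0.01). Mcm5 stood at 5.34, 3.66, 5.69 and 11.9 CPM and 5.99, 7.95, 3.96 and 3.67 CPM (-0.30, interval -1.06 to 0.47). Uhrf1 changed by -0.07 (interval -0.995 to 0.85). The groups overlapped for all 3 genes. The highest upper limit among the 32 was that of Clspn, at 0.93. An edgeR fit without the 2 libraries farthest from their group means called 1 of the 32, lower.

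On CCl4, knockout and wild-type mice differed in their response to T3 for 7 of the 32 genes, 1 higher and 6 lower in the knockout, where 22.7% of all genes were called (10.3% higher and 12.4% lower). The total called was near that share. Rrm2 differed by -2.90 ± 0.48 (adjusted p = 8.83e-05), Tk1 by -2.82 ± 0.57 (adjusted p = 7.94e-04), Mcm5 by -2.04 ± 0.56 and Pole by -1.94 ± 0.47. These 4 calls held when any single library was left out and with total-count scaling. Afmid, the neighbour of Tk1, differed by -3.80. Clspn (-2.19), Gins1 (-1.09) and Cdt1 (1.35) each lost the call without single libraries, with adjusted p up to 0.178, 0.0704 and 0.17. With total-count scaling the split was 3 higher and 4 lower, with Mcm7 and Rfc3 added to Cdt1 among the higher. Without replicate 3 of either T3 CCl4 group, or replicate 4 of the knockout PBS CCl4 group, 4 were called, all lower.

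Between the genotypes on T3 and CCl4, 2 of the 32 were higher in the knockout and 4 lower, where 22.9% of all genes were called (10.4% higher and 12.5% lower). The total called was near that share. The genotypes did not overlap for 7 of the 32, against 30.3% of all genes. Lower were Rrm2 (-2.27), Tk1 (-2.13), Pole (-1.24) and Mcm5 (-1.08), and higher were Cdt1 (0.97) and Pold1 (0.54). Tk1 stood at 5.59, 5.24, 3.18 and 3.67 CPM in these knockout mice and at 16.1 to 22.2 CPM in the wild type. The Mcm5 and Cdt1 calls were lost without single libraries, with adjusted p up to 0.16 and 0.124, and with total-count scaling 3 were higher and 3 lower. On PBS and CCl4, none of the 32 differed by edgeR or by DESeq2, where edgeR called 2.25% of all genes (1.21% higher and 1.04% lower), and 0 did not overlap, against 4.15% of all genes. There 6 genes had an unadjusted p under 0.05, and Mcm5 had the largest value at 0.95 and Fen1 the smallest at -0.56. Without replicate 4 of the wild-type PBS CCl4 group, 2 were called higher.

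The log2 change with T3 was lower on CCl4 than on oil for many of the genes. In the wild type this difference between injections was called for 12 of the 32, 11 of them lower on CCl4, where 23.9% of all genes were called (10.8% higher and 13.1% lower). In the knockout it was called for 12, all lower, where 3.71% of all genes were called (1.15% higher and 2.56% lower). The largest differences in the wild type were those of Uhrf1 (-2.65 ± 0.75), Fen1 (-2.39 ± 0.53) and Gins2 (-2.37 ± 0.51), and Mcm7 had the smallest adjusted p (-1.06 ± 0.20, adjusted p = 5.99e-04). In the knockout they were those of Uhrf1 (-4.55 ± 0.79, adjusted p = 9.73e-04), Cdc6 (-4.52 ± 0.85) and Clspn (-3.22 ± 0.86). The lowest counts of these genes in any library were 3, 0 and 0. The size and rank of their differences therefore rest on few reads. A lower value was not always a smaller response: Fen1 went from a rise of 1.12 on oil to a fall of 1.27 on CCl4, Mcm7 from a rise of 0.65 to a fall of 0.41, and Cdt1 from 0.10, not called, to a fall of 1.56. The falls of Fen1 and Mcm7, and the rise of Fen1, lost their calls without single libraries, while the fall of Cdt1 held. Tk1 was the one called gene in the wild type whose log2 change was higher on CCl4, by 2.28 ± 0.55. The wild-type Cdt1 difference (-1.66) was lost without replicate 2 of the PBS CCl4 group (adjusted p = 0.0737). In the knockout, the differences of Mcm2, Mcm6, Pold1, Pole and Clspn were lost without single libraries. There 7 genes were called without replicate 4 of the T3 CCl4 group or replicate 1 of the PBS oil group.

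Seen from the other side, CCl4 in wild-type mice on T3 changed none of the 32 by edgeR or by DESeq2, where edgeR called 3.40% of all genes (1.67% higher and 1.74% lower), and 2 did not overlap between groups, against 12.8% of all genes. Rrm2 alone had an unadjusted p under 0.05, with a change of -0.995 ± 0.32 (adjusted p = 0.0948), the lowest of the 32. Rpa2, a subunit of the single-strand binding complex, was highest at 0.28. An edgeR fit of only the compared groups called 1 of the 32, lower. In knockout mice on T3, CCl4 raised Fen1 (by 0.92) and lowered 6: Tk1 (by 2.65), Mcm10 (by 1.62), Clspn (by 1.41), Pole (by 1.35), Rrm2 (by 1.15) and Rfc5 (by 0.64), where 39.6% of all genes were called (19.7% higher and 19.8% lower). For 10 of the 32 the groups did not overlap, against 38.4% of all genes. With total-count scaling 3 rose and 4 fell, and the median moved from -0.16 to 0.03. Tk1 went from 34.4, 23.8, 29 and 23.9 CPM to 5.59, 5.24, 3.18 and 3.67 CPM, without overlap (SE 0.41, adjusted p = 2.64e-05). The calls of Fen1, Mcm10, Clspn and Rrm2 were lost without single libraries, with adjusted p up to 0.146, 0.0504, 0.116 and 0.0651, and without replicate 3 of the knockout T3 CCl4 group 4 were called, all lower.

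Genes of mitosis, the step after replication, give the closest reference. The 16 mitosis genes (cyclins, mitotic kinases and spindle proteins) all rose with T3 on oil in both genotypes, where 19.0% and 10.6% of all genes rose. Their medians were 4.63 and 3.69, against 0.91 and 0.71 for the replication genes. The smallest adjusted p were those of Ccna2 (cyclin A2, 4.85 ± 0.46) in the wild type and Top2a (topoisomerase II alpha, 4.74 ± 0.56) in the knockout. With T3 on CCl4, 20.0% of all genes rose in the wild type and 1.77% in the knockout. Of the mitosis genes, 5 of 16 rose in the wild type (median 0.72) and 0 in the knockout. With total-count scaling 2 rose in the wild type (median 0.37), and the calls of Nusap1, Mki67 and Birc5 were lost without single libraries, leaving Top2a and Aurkb. With CCl4 on PBS, 24.6% of all genes rose in the wild type and 17.8% in the knockout. Of the mitosis genes, 5 of 16 rose in the wild type (8 with total-count scaling) and 14 in the knockout. Of these calls, 3 and 5 were lost without single libraries. With CCl4 in mice on T3, all 16 mitosis genes fell in each genotype (medians -2.52 and -2.62). Of the 32 replication genes, 0 fell in the wild type (median -0.22), where 1.74% of all genes fell, and 6 in the knockout (median -0.16), where 19.8% did. The difference between the lists was not tested. Ccnb1 (cyclin B1) fell by 4.12 in the wild type and Ccnb2 by 2.83 in the knockout. Summed, the mitosis genes stood at 10.8, 234, 20.8 and 37.2 CPM in wild-type mice on PBS oil, T3 oil, PBS CCl4 and T3 CCl4, and at 8.17, 100.5, 29.9 and 19.8 CPM in the knockout. On T3 and oil, 10 of 16 were lower in the knockout, where 9.21% of all genes were lower. Of these 10 calls, 9 were lost without single libraries (Ccnb1 held). The response to T3 on oil differed between genotypes for 0 of the 16, where 12.2% of all genes were called.

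**Figure D4:**
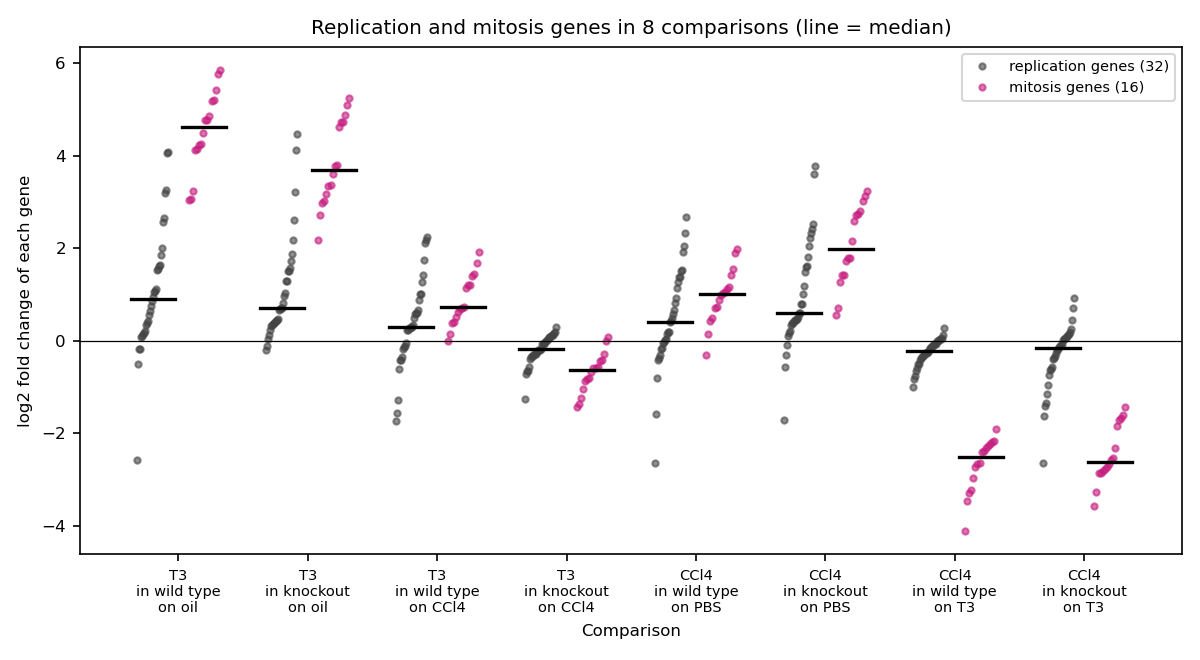
log2 fold change of each of the 32 tested replication genes (grey) and 16 mitosis genes (magenta) in the 8 comparisons of T3 against PBS and CCl4 against oil, with the median as a line. With T3 on oil both lists lie mostly above 0, and with CCl4 on T3 all mitosis genes lie below 0, while the replication medians are -0.22 and -0.16 and single replication genes reach -2.65 (Tk1 in the knockout).

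Other genes of the same pathways moved less evenly. Of all genes, T3 on oil raised 19.0% and lowered 16.2% in the wild type, and raised 10.6% and lowered 8.11% in the knockout. CCl4 on PBS raised 24.6% and lowered 21.6% of all genes in the wild type, and raised 17.8% and lowered 13.4% in the knockout. Of 39 further replication genes tested, T3 on oil raised 13 and lowered 2 in the wild type and raised 8 in the knockout. CCl4 on PBS raised 15 of the 39 and lowered 3 in the wild type and raised 16 in the knockout. The 2 that fell with T3 in the wild type were Mcmbp (by 0.30) and Dna2 (by 0.88). Dbf4, the activator of the Cdc7 kinase that fires origins, rose by 2.64 ± 0.28 with T3 in the wild type on oil and by 2.22 ± 0.28 with CCl4. Gmnn (geminin, which inhibits Cdt1) rose by 1.30 ± 0.19 with T3 in the wild type on CCl4, where Cdt1 fell. Chaf1a, the partner of Chaf1b, rose by 1.98 ± 0.35 with CCl4 in the knockout. Of 26 further nucleotide genes, T3 on oil raised 4 and lowered 5 in the wild type and raised 3 and lowered 3 in the knockout. These counts are near the shares of all genes. Samhd1, which degrades deoxynucleotides, rose by 1.31 ± 0.12 and 1.03 ± 0.12 with T3 on oil, wild type first. Paics, a purine synthesis enzyme, fell by 1.17 and 0.87. On CCl4, T3 in the wild type raised Shmt1 (serine hydroxymethyltransferase) by 2.08 and lowered Impdh1 (a guanine nucleotide synthesis enzyme) by 2.52. Of 13 E2F and pocket protein genes, 8 rose with T3 on oil in the wild type, where 19.0% of all genes rose, and 3 in the knockout, where 10.6% did. The wild-type calls of E2f1, E2f2 and E2f4 were lost without single libraries, with adjusted p up to 0.177, 0.119 and 0.0508. The change of E2f8 was 2.49 ± 0.42 in the wild type and 2.02 ± 0.41 in the knockout.

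Marker genes of other cell types moved in the same comparisons. Of all genes, T3 on oil raised 19.0% and lowered 16.2% in the wild type, and raised 10.6% and lowered 8.11% in the knockout. On CCl4, T3 raised 20.0% of all genes in the wild type and 1.77% in the knockout. CCl4 on PBS raised 24.6% and lowered 21.6% of all genes in the wild type, and raised 17.8% and lowered 13.4% in the knockout. All 10 Kupffer cell markers rose with T3 on oil in both genotypes and on CCl4 in the wild type, and 3 of 10 on CCl4 in the knockout, where all 3 calls (Clec4f, Cd5l and Folr2) were lost without single libraries, with adjusted p up to 0.0869, 0.142 and 0.0617. Their summed level per mouse was 139 to 291 CPM on PBS and 1010 to 1628 CPM on T3 in the wild type on oil, 165 to 228 and 765 to 1138 CPM in the knockout on oil, 253 to 480 and 821 to 1255 CPM in the wild type on CCl4, and 246 to 514 and 587 to 896 CPM in the knockout on CCl4. Erythroid precursor markers rose with T3 on oil for 6 of 9 in each genotype, and 2 fell in the wild type. With CCl4 on PBS, all 9 monocyte-derived macrophage markers rose in the wild type and 7 in the knockout, 6 of 6 tested neutrophil markers rose in the wild type and 1 in the knockout (the difference was not tested), and 7 and 4 of 10 hepatocyte markers fell. Neutrophil markers summed to between 25.8 and 322 CPM in the 4 wild-type mice on PBS and CCl4 (112 ± 141 CPM, SD), so that 1 mouse held most of the level. Hepatocyte markers in single mice summed to 126042 to 181736 CPM on oil and 53142 to 73534 CPM on CCl4 in wild-type mice on PBS. Their part in the results on replication genes was not tested.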

How the data were processed

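Polyadenylated liver RNA of 32 mice was sequenced, 4 animals in each of 8 groups. The deposited file holds whole-number read counts for each gene and library, without scaling. STAR 2.7.9a, cutadapt, Trim Galore and FastQC 0.11.5, and the build GRCm38, are named in the submitters' processing notes. Which program counted reads, with which strand setting and gene models, is not given in the sources used here. Per the labels' protocols, libraries were made with TruSeq v2 or TruSeq Stranded kits, and which library used which is not stated, so the kit and the group cannot be told apart. Symbols and 1-based positions came from GENCODE vM21 (52489 of 52636 genes matched), and promoter sequence from RefSeq (GRCm38.p6).

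Counts were fitted with edgeR 4.0.16 (R 4.3.3, limma 3.58.1) by its quasi-likelihood test, with all 32 libraries in 1 model and TMM factors, after filterByExpr had removed low genes (minimum count 10, minimum total 15, by group). In every library the 15599 kept genes took 99.5% or more of the total. There are 16 comparisons, 12 pairs of groups unlike in a single factor and 4 interactions (knockout minus wild type, or CCl4 minus oil). The fit was tested on simulated data. CPM values were computed from the counts, and per-kilobase levels divide them by the union of exons.

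The 33 genes and the other lists were chosen with earlier results of these data known. Values in every library are given for representatives of each role. Each comparison also names the genes with the smallest adjusted p and the largest and smallest change, those called against the majority, and all of those called or not called where they are 5 or fewer. Of the other lists, it names mainly the gene with the smallest adjusted p. Others are named to set genes side by side. Alternatives were DESeq2 1.42.0, total-count scaling, no filter, a replicate block, only the compared groups and leaving out each library. The fit without the 2 libraries farthest from their group means was chosen after seeing the data. Exons shared with a gene on the other strand were found for 9 of the 33 genes. Besides Gins2, Tk1 and Rfc5 these were Rfc4 (12.7% of exon bases, with Eif4a2), Orc6 (6.93%, Vps35) and Cdc45 (5.96%, Ufd1). Lig1 shares 5.79% with Zswim9, Fen1 5.37% with Tmem258, and Mcm7 7.25% with Ap4m1 and 1.45% with Cops6. Eif4a2, Vps35 and Cops6 averaged 267, 97.8 and 85.9 CPM. The share of the reads of these genes that belongs to their partners was not tested.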

Additional observations from a re-analysis of the deposited data

Results flagged for a closer look

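In 5 of 120 sets of 4 mice (15 genes in 8 groups), 1 mouse lay far from the other 3, where chance gives about 1 in 20. They were Cdc6 in replicate 2 of the wild-type PBS oil group (0.274 CPM), Mcm5 in replicate 1 of the wild-type T3 oil group (23.3 CPM), Cdc45 in replicate 4 of the knockout PBS CCl4 group (2.94 CPM), Pola1 in replicate 1 of the knockout T3 oil group (5.57 CPM) and Dut in replicate 3 of the knockout PBS CCl4 group (13.1 CPM). The Mcm5 and Pola1 mice were the same ones that were above their group means for most of the 32 genes. The Cdc6 set rests on few reads, since Cdc6 had at most 35 counts in any library.

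The T3 response differed between genotypes by an interaction test in edgeR, given as the knockout minus the wild-type log2 change. On oil it did for Mcm10 (2.37) and Rrm2 (-2.55). On CCl4 it did for Mcm5 (-2.04), Cdt1 (1.35), Gins1 (-1.09), Pole (-1.94), Rrm2 (-2.90), Tk1 (-2.82) and Clspn (-2.19). Rrm2 is the gene called in both.

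The T3 response differed between injections, given as CCl4 minus oil. In the wild type it did for Mcm2 (-1.65), Mcm3 (-1.40), Mcm6 (-1.91), Mcm7 (-1.06), Cdt1 (-1.66), Gins2 (-2.37), Pold1 (-0.74), Fen1 (-2.39), Rrm2 (-1.81), Tk1 (2.28), Uhrf1 (-2.65) and Chaf1b (-2.03). In the knockout it did for Mcm2 (-1.83), Mcm3 (-1.58), Mcm5 (-2.90), Mcm6 (-2.08), Cdc6 (-4.52), Gins2 (-2.44), Pold1 (-0.73), Pole (-1.96), Rrm2 (-2.16), Uhrf1 (-4.55), Clspn (-3.22) and Chaf1b (-2.37). Of these, only Tk1 in the wild type had a higher log2 change on CCl4, and Fen1, Mcm7 and Cdt1 in the wild type fell with T3 on CCl4. The falls of Fen1 and Mcm7 lost their calls without single libraries.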

How the results depend on the processing

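Of 136 calls of the 33 genes over the 16 comparisons, 0 reversed under any alternative. DESeq2 kept 136, the fit without a filter 119, total-count scaling 122, the fit without the 2 farthest libraries 121, and the fit of only the compared groups 118 of the 131 it could test. Leaving out single libraries lost 41 of the calls at least once. Counts of called genes moved by over 1.5 times to 9 for T3 in wild type on CCl4, 1 for CCl4 in wild type on T3 and 2 for the knockout on T3 and oil with only the compared groups, to 3 for the last with DESeq2 and without the 2 farthest libraries, to 1 for T3 in knockout on CCl4 without those libraries, and to 4 for the genotype difference on CCl4 without a filter. Leaving out 1 library gave 18 to 22 (wild type) and 13 to 16 (knockout) for T3 on oil, 10 to 18 and 0 to 0 for T3 on CCl4, 13 to 17 and 14 to 17 for CCl4 on PBS, and 0 to 0 and 4 to 7 for CCl4 on T3. It gave 0 to 0, 1 to 3, 0 to 2 and 4 to 8 for the knockout on PBS oil, T3 oil, PBS CCl4 and T3 CCl4, 1 to 2 and 4 to 10 for the genotype difference on oil and CCl4, and 12 to 14 and 7 to 13 for the injection difference in wild type and knockout. The cause of these shifts was not tested.

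Total-count scaling moved the median of all genes by 0.40 and 0.31 for CCl4 on PBS in wild type and knockout, where 18 rose and 2 fell, and 22 rose and 1 fell, and by -0.48 for the injection difference in wild type, with 1 higher and 16 lower. No label says that replicate numbers pair animals. The deviations of 112 same-numbered pairs correlated from -0.348 to 0.510 (median -0.00933), with 13 pairs over 0.1. Of 32 libraries, 4 correlated best with their own number. Correlations over all genes cannot exclude a pairing with small effects. The fit with a replicate block kept 130 of the 136 calls, with 22 for T3 in wild type on oil and 17 on CCl4, and moved no count by over 1.5 times. Depth limits Cdc6, Clspn and Orc1, which had few reads, and Uhrf1 on PBS and oil, with a lowest count of 3.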

Other observations

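Mice of a group differed in how far the whole set was raised. Among the knockout mice on T3 and oil, 32 of the 32 tested genes were above the group mean in replicate 1 and 2 in replicate 2. The summed level of the 33 genes was 371 CPM in the first and 220.3 CPM in the second. Among the wild-type mice on T3 and oil, 30 of 32 genes were above the mean in replicate 1 (478 CPM) and 3 in replicate 3 (272 CPM). On CCl4, 30 of 32 were above the mean in replicate 2 of the wild-type T3 group and 29 in replicate 4 of the knockout PBS group.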
